A study of Mus musculus with 10 samples.

Results

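The genes described here are the nuclear genes of the mitochondrial respiratory chain and ATP synthase. They were taken by name from the deposited table of FPKM, fragments per length of gene model and per library size, as protein-coding gene models whose symbol starts with Nduf, Uqcr, Cox followed by a digit from 4 to 8, or Atp5. The rule found 87 of the table's 42465 gene models: 44 of complex I, 8 of complex III, 19 of complex IV and 16 of complex V. Of these, 84 reached 0.5 FPKM in 5 or more libraries and were among the 15156 genes tested. Cox6a2, Cox8b and Cox8c did not. The complexes and roles were assigned by textbook knowledge, so that Ndufa4 and Ndufa4l2 stand with complex IV and Atp5sl with the assembly factors of complex I.

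The samples were explants of the mouse neural tube, dissected at embryonic day 9.5 with the neural crest cells they hold and grown for 4 days. By their genotype labels 5 samples were Ednrb-/-, mutant on both alleles of the endothelin receptor type B gene, and 5 were WT. Every culture of either genotype received 20 nM EDN3, the ligand of that receptor, and 10% fetal bovine serum. The labels call the 5 samples of a genotype biological replicates, give no litter, day or allele, and do not say how many embryos went into a sample. The study's design text names melanoblast proliferation as its question.

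Complex I takes electrons from NADH, complex III passes them from ubiquinol to cytochrome c, and complex IV hands them to oxygen. These complexes pump protons, and complex V, the ATP synthase, uses the returning protons to make ATP. Each complex has a core that does the chemistry and small accessory subunits that hold it together, and complexes I, III, IV and V also contain proteins made from mitochondrial DNA. Cells that differentiate into neurons are known to come to rely more on this chain. Several complex IV subunits exist as a common form and a form restricted to certain tissues, such as heart, skeletal muscle, lung or testis.

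Reads worked back from FPKM and gene length came to between 13022266 and 19532570 per library. Ednrb itself averaged 7.15 ± 3.41 FPKM in Ednrb-/- explants (range 2.34 to 11.7) and 52.3 ± 7.16 FPKM in WT explants (range 43.8 to 60.7; SD, n = 5 each). Its log2 difference was -2.92 ± 0.31 (SE) and the groups did not overlap (exact two-sided permutation test, p = 0.00794, the smallest that 5 against 5 samples allow). The explants were mixtures, and the RNA of markers of several cell types differed with genotype. Of the neuronal markers, 12 of 13 tested rose, and their summed level was 2203 to 2481 FPKM in Ednrb-/- explants, against 1399 to 1714 FPKM in WT explants. All 10 tested smooth muscle markers fell. The sum of the 11 listed, with Myh11 under the filter, was 50.5 to 295 FPKM in Ednrb-/- explants, against 335 to 2541 FPKM in WT explants. All 5 tested melanocyte markers fell, while Tyr, Tyrp1, Oca2 and Slc45a2 stayed under the filter. The sum of all 9 was 3.12 to 10.6 FPKM in Ednrb-/- explants, against 50.5 to 185 FPKM in WT explants. Of the 8 tested neural progenitor markers 1 rose and 2 fell. In bulk RNA, fewer cells of a type and less RNA per cell cannot be told apart.

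The sequences below are the 300 bases around the annotated start (250 before and 50 after) of 4 genes on which the results turn, from RefSeq, build GRCm38.p6, 5′ to 3′ on the gene's strand. Capitals mark letters of motifs of 2 factors known to act on many genes of this family, searched on both strands: CCGGAAG (ETS factors such as GABP) and AAGATGGCG (YY1). Ndufb5 (chr3:32736813-32737112, plus strand) is shown because its rise was the most stable, and Ndufaf5 (chr2:140170396-140170695, plus strand) because it was the member whose genotypes did not overlap. Ndufs4 (chr13:114388045-114388344, minus strand) is shown as a riser with a YY1 match, and Cox6b2 (chr7:4753045-4753344, minus strand) as the member that fell.
Ndufb5: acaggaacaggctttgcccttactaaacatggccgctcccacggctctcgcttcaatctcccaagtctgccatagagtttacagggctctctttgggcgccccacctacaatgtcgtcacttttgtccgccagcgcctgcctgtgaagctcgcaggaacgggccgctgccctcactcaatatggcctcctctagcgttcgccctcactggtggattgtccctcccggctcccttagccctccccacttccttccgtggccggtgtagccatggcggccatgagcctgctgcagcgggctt
Ndufaf5: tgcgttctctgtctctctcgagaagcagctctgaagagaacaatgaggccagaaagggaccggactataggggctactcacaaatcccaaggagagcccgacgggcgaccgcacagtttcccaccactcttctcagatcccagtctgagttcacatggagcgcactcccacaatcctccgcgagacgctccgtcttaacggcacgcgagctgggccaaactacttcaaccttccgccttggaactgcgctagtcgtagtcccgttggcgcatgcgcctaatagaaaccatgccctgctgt
Ndufs4: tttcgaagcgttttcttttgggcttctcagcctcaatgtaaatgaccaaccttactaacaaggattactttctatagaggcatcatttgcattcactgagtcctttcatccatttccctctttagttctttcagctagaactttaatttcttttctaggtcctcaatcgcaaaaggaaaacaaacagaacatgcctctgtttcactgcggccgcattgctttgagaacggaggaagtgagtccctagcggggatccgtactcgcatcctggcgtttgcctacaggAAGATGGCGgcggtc
Cox6b2: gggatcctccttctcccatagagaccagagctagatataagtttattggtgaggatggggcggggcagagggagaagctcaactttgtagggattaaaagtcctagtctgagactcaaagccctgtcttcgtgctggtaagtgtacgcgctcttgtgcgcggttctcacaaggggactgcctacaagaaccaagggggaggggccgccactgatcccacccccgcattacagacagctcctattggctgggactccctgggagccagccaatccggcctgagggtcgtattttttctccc

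A start region was found for 72 of the 87 members. Of these 72, 22 (30.6%) held at least 1 of these motifs, against 11.2% of all 27025 genes with a start region of the same length. Those genes were not filtered by expression or gene type, so they are not a matched set. The ETS letters stood in 15 members (20.8%, against 9.93% of all these genes) and the YY1 letters in 8 (11.1%, against 1.64%). Among the 9 members that rose, described below, Ndufs4 alone held a match (YY1), close after its annotated start. Ndufb5, Ndufaf5 and Cox6b2 held none of these letters in the window printed. A match is a run of letters and not a measured binding site.

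In Ednrb-/- explants 9 respiratory chain genes rose and 1 fell, and most of the others lay slightly above WT without passing the test. The 9 were Ndufb5, Ndufv2, Ndufs4, Ndufc2, Ndufaf5 and Ndufaf7 of complex I, Uqcrfs1 of complex III, Cox5a of complex IV and Atp5f1 of complex V, with rises of 0.36 to 0.67 on the log2 scale. The gene that fell was Cox6b2, a testis form of a complex IV subunit, by 1.41. The test was limma-trend on log2(FPKM + 0.5) with Benjamini-Hochberg adjustment over all 15156 genes, and every fold change below is Ednrb-/- minus WT on that scale. The 9 that rose are 10.7% of the 84 tested members, beside 6.53% of all tested genes, and the 1 that fell is 1.19%, beside 13.0% of all tested genes. In either direction 11.9% of the members passed, beside 19.5% of all genes, so the share called among the members was below that of the table.

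The members differed more in direction than in calls. Of the 84, 76 (90.5%) had a log2 fold change above 0, beside 50.7% of all tested genes, and their median was 0.20, beside 0.0048. Members moved together between libraries of a genotype, so these are not 84 independent signs. Within genotypes, a member's correlation with the median of the other members had a median of 0.75, and 65 members exceeded 0.5. With FPKM rescaled to TPM 68 of 84 lay above 0, and after quantile normalization 73 did, where the share of all genes was 47.5% and 61.1%. The count was 62 without Ednrb-/- replicate 5 and 64 without WT replicate 3. With the mean of the smooth muscle markers or of the neuronal markers in the model it was 41 and 31 of 84, and the members' median was -0.02 and -0.11. The means of both lists were fully separate between the genotypes, so these fits cannot tell genotype and covariate apart. At an unadjusted p under 0.05 there were 25 members (29.8%, beside 33.1% of all genes). Only Ndufaf5 had genotypes that did not overlap, 1.19% of the members, beside 4.78% of all genes that were higher without overlap. A lower level without overlap was found for 8.44% of all genes and for none of the 84 members tested. The median log2 fold change was 0.17 in complex I, 0.07 in complex III, 0.32 in complex IV and 0.21 in complex V. That of complex V was 0.083 or 0.12 when Ednrb-/- replicate 1 or 5 was left out and 0.11 without WT replicate 3. That of complex III was 0.15, 0.20, 0.046 and 0.033 without Ednrb-/- replicate 1, 2, 3 or 5, and 0.21, 0.14 and 0.017 without WT replicate 1, 4 or 5. Complexes I and IV stayed at 0.13 to 0.25 and 0.25 to 0.38 with 1 library left out.

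**Figure D1:**
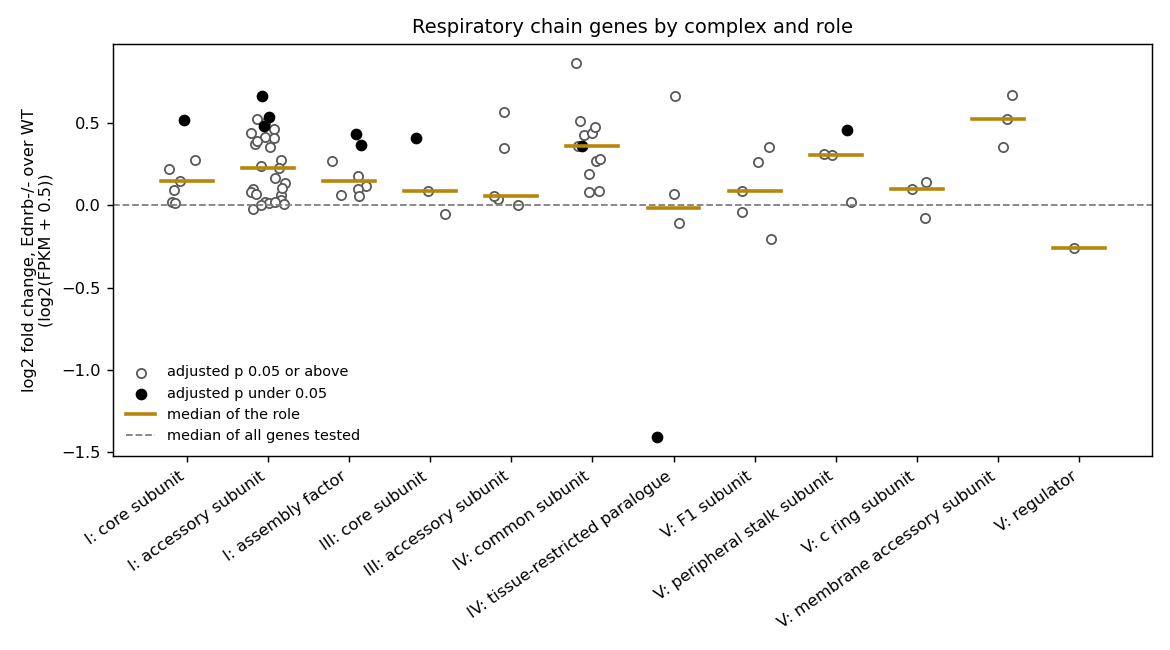
Log2 fold change (Ednrb-/- over WT, log2(FPKM + 0.5), vertical axis) of the 84 tested respiratory chain genes, grouped by complex and role along the horizontal axis. Each circle is 1 gene, filled where the adjusted p is under 0.05, with gold bars for the role's median and a dashed line for the median of all tested genes. The 12 common complex IV subunits all lie above 0 and Cox6b2 lies alone at -1.41.

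Ndufb5, an accessory subunit in the membrane arm of complex I, had the lowest p of the family. Its level was 18.8, 23.9, 20.7, 14.8 and 19.3 FPKM in Ednrb-/- replicates 1 to 5, against 15.5, 11.1, 9.84, 12.1 and 11.8 FPKM in WT replicates 1 to 5. The groups overlapped only through Ednrb-/- replicate 4, which lay just under WT replicate 1. The mean was 19.5 ± 3.31 FPKM in Ednrb-/- explants and 12.1 ± 2.09 FPKM in WT explants (SD, n = 5 each). The difference was 0.67 ± 0.14 on the log2 scale (SE; limma adjusted p = 0.0082). Ndufb5 passed in each of the 10 fits that left out 1 library, with an adjusted p of 0.0042 to 0.0238. The gene model lies at chr3:31868508-31882915 on the plus strand in the coordinates of the deposited table. It shares 533 bases with Mrpl47, a mitochondrial ribosomal protein gene on the other strand, which averaged 7.73 FPKM in Ednrb-/- explants and 5.59 FPKM in WT explants (log2 fold change 0.43, limma adjusted p = 0.0346). The labels and processing notes do not say whether counting used strand, so reads in the shared bases cannot be assigned between them.

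Ndufv2 and Ndufs4 belong to the arm of complex I that reaches into the matrix. Ndufv2, a core subunit that carries an iron-sulfur cluster near the NADH site, stood at 123, 128, 122, 108 and 144 FPKM in Ednrb-/- replicates 1 to 5, against 118, 76.0, 66.7, 97.5 and 82.5 FPKM in WT replicates 1 to 5. WT replicate 1 alone reached into the Ednrb-/- range. Its log2 fold change was 0.52 ± 0.14 (SE; limma adjusted p = 0.0271), with means of 125 ± 13.1 FPKM in Ednrb-/- explants and 88.1 ± 20.0 FPKM in WT explants (SD, n = 5 each). Ndufs4, an accessory subunit whose loss causes Leigh syndrome, was at 51.7, 48.9, 54.3, 39.1 and 65.1 FPKM in Ednrb-/- replicates 1 to 5, against 50.9, 30.4, 27.5, 37.4 and 33.5 FPKM in WT replicates 1 to 5. Again WT replicate 1 was the library that overlapped with Ednrb-/- explants. On the log2 scale Ndufs4 was higher by 0.54 ± 0.17 (SE; limma adjusted p = 0.0477). The models lie at chr17:70878761-70902331 (Ndufv2) and chr13:120417018-120521327 (Ndufs4), both on the minus strand, in the table's coordinates.

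Ndufc2, a small membrane subunit, had 126, 117, 164, 115 and 172 FPKM in Ednrb-/- replicates 1 to 5, against 126, 105, 81.8, 96.2 and 86.1 FPKM in WT replicates 1 to 5. Only WT replicate 1 lay within the Ednrb-/- range, and replicates 3 and 5 were the high Ednrb-/- libraries. The log2 fold change was 0.48 ± 0.15 (SE; limma adjusted p = 0.0452). The remaining accessory subunits of complex I gave 26 genes that did not pass, and among all 29 accessory subunits the log2 fold change ran between -0.02 (Ndufb6) and 0.67 (Ndufb5) with a median of 0.23. Ndufb9, an accessory subunit and 1 of the 3 complex I members with the highest FPKM, averaged 126 ± 27.0 FPKM in Ednrb-/- explants and 95.6 ± 25.4 FPKM in WT explants (SD, n = 5 each; log2 fold change 0.41, limma adjusted p = 0.151). Ndufb6 averaged 50.0 ± 10.2 FPKM in Ednrb-/- explants and 50.2 ± 6.31 FPKM in WT explants (SD, n = 5 each).

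The 7 core subunits of complex I, which carry the flavin and the iron-sulfur clusters, all had log2 fold changes above 0, with a median of 0.15 and a range of 0.01 to 0.52. Apart from Ndufv2 their adjusted p values were 0.131 or higher. With TPM, 37 of the 44 complex I members lay above 0, beside 43 of 44 as deposited.

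Of 8 complex I assembly factors, which build the complex and then leave it, 2 rose. Ndufaf5, which modifies an arginine of a core subunit, stood at 8.33, 10.6, 9.65, 10.5 and 9.83 FPKM in Ednrb-/- replicates 1 to 5, against 8.11, 7.77, 6.08, 8.17 and 5.67 FPKM in WT replicates 1 to 5. All 5 Ednrb-/- libraries lay above all 5 WT libraries, by a narrow margin between Ednrb-/- replicate 1 and WT replicate 4. Its log2 fold change was 0.43 ± 0.12 (SE; limma adjusted p = 0.0303). Ndufaf7, a methyltransferase, had 8.82, 11.9, 10.7, 8.59 and 10.7 FPKM in Ednrb-/- replicates 1 to 5, against 7.93, 8.11, 6.68, 8.65 and 7.30 FPKM in WT replicates 1 to 5. Its groups crossed at Ednrb-/- replicate 4 and WT replicate 4, and its log2 fold change was 0.37 ± 0.11 (SE; limma adjusted p = 0.0431). Ndufaf5 lies at chr2:148421996-148457492 and Ndufaf7 at chr17:84759427-84770374, both on the plus strand in the table's coordinates.

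**Figure D2:**
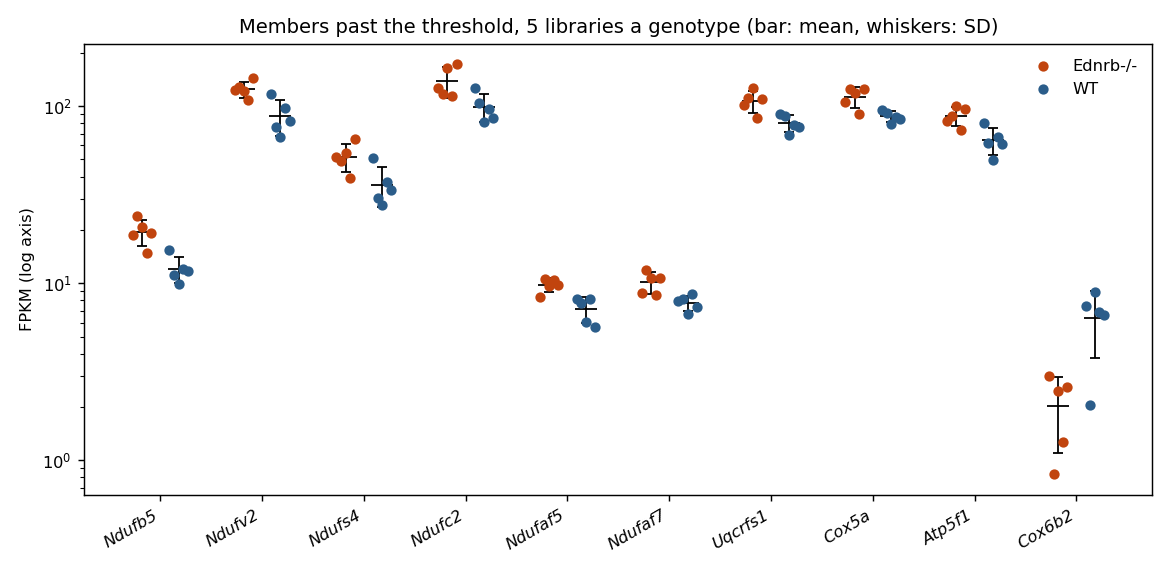
FPKM on a log axis of the 10 respiratory chain genes that passed the test, with Ednrb-/- libraries left (orange) and WT libraries right (blue) for each gene. Each point is 1 library in replicate order, the horizontal tick is the mean and the whiskers are the SD (n = 5 each). WT replicate 1, the leftmost blue point, is the highest WT library for Ndufb5, Ndufv2, Ndufs4, Ndufc2, Uqcrfs1, Cox5a and Atp5f1.

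In complex III the gene that rose was Uqcrfs1, the Rieske iron-sulfur protein that takes electrons from ubiquinol. It was measured at 101, 111, 127, 86.2 and 110 FPKM in Ednrb-/- replicates 1 to 5, against 89.8, 87.7, 68.8, 78.0 and 76.0 FPKM in WT replicates 1 to 5. Ednrb-/- replicate 4 lay below WT replicates 1 and 2, and the other 4 Ednrb-/- libraries lay above every WT library. Its log2 fold change was 0.41 ± 0.11 (SE; limma adjusted p = 0.0260), at chr13:29396306-29401355 on the minus strand in the table's coordinates. The other core proteins gave small values: Uqcrc1 averaged 41.6 ± 2.09 FPKM in Ednrb-/- explants and 43.2 ± 3.52 FPKM in WT explants, and Uqcrc2 69.2 ± 7.56 FPKM in Ednrb-/- explants and 65.1 ± 7.07 FPKM in WT explants (SD, n = 5 each). Among the 5 accessory subunits Uqcrh, the hinge protein beside cytochrome c1, came nearest, with 97.3 ± 14.0 FPKM in Ednrb-/- explants and 67.4 ± 20.1 FPKM in WT explants (log2 fold change 0.57 ± 0.19 (SE), limma adjusted p = 0.0582). Uqcrb varied more between libraries of a genotype than between genotypes, from 8.54 to 39.0 FPKM in Ednrb-/- explants and from 6.82 to 26.7 FPKM in WT explants.

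Complex IV had the highest median of the 4 complexes, and it rested on the common subunits. All 12 of them lay above 0, with a median of 0.36, and 12 of 12 also did with TPM and after quantile normalization. Without Ednrb-/- replicate 5, or without WT replicate 3, 11 of 12 did. Cox5a, a subunit on the matrix side, was the common subunit that passed. It had 105, 126, 118, 90.9 and 125 FPKM in Ednrb-/- replicates 1 to 5, against 95.7, 91.5, 79.6, 86.4 and 85.0 FPKM in WT replicates 1 to 5. As with Uqcrfs1, Ednrb-/- replicate 4 lay below WT replicates 1 and 2 and the other Ednrb-/- libraries lay above all WT libraries. This gave a log2 fold change of 0.36 ± 0.10 (SE; limma adjusted p = 0.0306), at chr9:58316975-58330006 on the plus strand in the table's coordinates.

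The largest fold change of the family that did not pass was that of Cox7c, a short accessory subunit. It had 18.1, 17.4, 17.9, 19.6 and 50.8 FPKM in Ednrb-/- replicates 1 to 5, against 19.1, 7.03, 11.02, 14.9 and 11.5 FPKM in WT replicates 1 to 5. Ednrb-/- replicate 5 stood far above the other Ednrb-/- libraries, which overlapped with WT replicate 1. The log2 fold change was 0.87 ± 0.32 (SE; limma adjusted p = 0.0803), and without Ednrb-/- replicate 5 it was 0.58 (limma adjusted p = 0.124). Cox8a and Cox7b, equally small membrane subunits, gave log2 fold changes of 0.51 and 0.47 (limma adjusted p = 0.126 and 0.115). The abundant Cox4i1, a subunit that binds ATP, averaged 194 ± 26.5 FPKM in Ednrb-/- explants and 183 ± 28.8 FPKM in WT explants (SD, n = 5 each; log2 fold change 0.09). Cox6a1, the highest complex IV gene by FPKM, averaged 306 ± 34.7 FPKM in Ednrb-/- explants and 254 ± 31.0 FPKM in WT explants (SD, n = 5 each; log2 fold change 0.27, limma adjusted p = 0.133).

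The tissue-restricted forms of complex IV were low in every library, and Cox6b2 was the form that changed. It had 3.01, 0.831, 2.46, 1.28 and 2.60 FPKM in Ednrb-/- replicates 1 to 5, against 7.45, 2.04, 8.95, 6.90 and 6.62 FPKM in WT replicates 1 to 5. WT replicate 2 was low and lay inside the Ednrb-/- range, and the other 4 WT libraries lay above every Ednrb-/- library. Its log2 fold change was -1.41 ± 0.37 (SE; limma adjusted p = 0.0228), on 12 to 156 reads per library, at chr7:1744959-1746261 on the minus strand in the table's coordinates. WT replicate 2 was also the WT library with the lowest summed smooth muscle markers. Among Ednrb-/- libraries the mean log2 level of these markers was highest in replicate 4 (3.15) and lowest in replicate 5 (1.51). Cox6b2 had 1.28 and 2.60 FPKM in these 2 libraries, and a relation was not tested. Without WT replicate 3, 4 or 5 the adjusted p of Cox6b2 was 0.0617, 0.0572 or 0.0564.

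Its common partner Cox6b1 was at 207, 197, 185, 248 and 280 FPKM in Ednrb-/- replicates 1 to 5, against 253, 214, 157, 251 and 185 FPKM in WT replicates 1 to 5, with the groups fully mixed (log2 fold change 0.08, limma adjusted p = 0.761). Cox6b2 therefore made up 0.420 to 1.43% of the FPKM of the pair in Ednrb-/- explants and 0.946 to 5.39% in WT explants. Ndufa4l2, a hypoxia-induced relative of Ndufa4 that is high in pericytes, was at 6.74, 9.11, 5.18, 0.576 and 4.47 FPKM in Ednrb-/- replicates 1 to 5, against 5.12, 5.65, 1.26, 1.15 and 1.62 FPKM in WT replicates 1 to 5. The spread within a genotype was larger than the difference (log2 fold change 0.66 ± 0.59 (SE), limma adjusted p = 0.476). Of the tested pericyte and mural cell markers 4 of 5 fell. The sum of the 9 listed was 13.0 to 27.5 FPKM in Ednrb-/- explants, against 36.8 to 46.1 FPKM in WT explants. Notch3, the tested marker that did not pass, averaged 13.1 FPKM in Ednrb-/- explants and 14.8 FPKM in WT explants. Ndufa4 averaged 98.3 ± 22.5 FPKM in Ednrb-/- explants and 75.9 ± 15.3 FPKM in WT explants (SD, n = 5 each; log2 fold change 0.36, limma adjusted p = 0.156).

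Cox4i2, the form used in lung and in low oxygen, averaged 1.23 ± 0.572 FPKM in Ednrb-/- explants and 1.17 ± 0.564 FPKM in WT explants (SD, n = 5 each). Cox7a1, the form of heart and skeletal muscle, averaged 1.06 ± 0.827 FPKM in Ednrb-/- explants and 0.986 ± 0.349 FPKM in WT explants, beside 151 ± 5.81 FPKM in Ednrb-/- explants and 126 ± 26.02 FPKM in WT explants for its common partner Cox7a2 (SD, n = 5 each). Neither restricted form passed (limma adjusted p = 0.905 and 0.884), and the sign of each turned under some alternatives. Of the heart and muscle forms Cox6a2 and Cox8b, and of the testis form Cox8c, Cox6a2 and Cox8c were listed at 0 in all 10 libraries. Cox8b was listed at 0 in 6 of them and at most 0.558 FPKM.

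**Figure D3:**
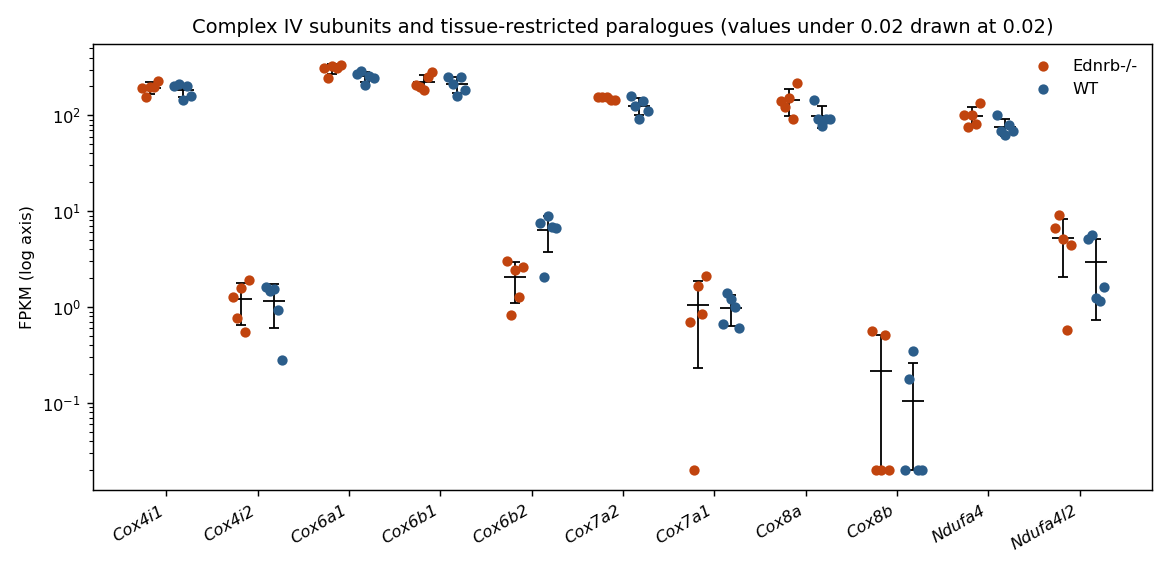
FPKM on a log axis of common complex IV subunits and their tissue-restricted forms, Ednrb-/- libraries left (orange) and WT libraries right (blue). Points are libraries in replicate order, ticks are means and whiskers the SD (n = 5 each), cut at 0.02, where values below that are drawn. The common forms lie between 62.5 and 336 FPKM, and the restricted forms at 9.11 FPKM or lower.

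In complex V the gene that rose was Atp5f1, now named Atp5pb, subunit b of the peripheral stalk that holds the catalytic head still. It was at 82.4, 88.4, 99.9, 73.0 and 97.0 FPKM in Ednrb-/- replicates 1 to 5, against 80.8, 61.9, 49.9, 67.3 and 61.5 FPKM in WT replicates 1 to 5. Only Ednrb-/- replicate 4 and WT replicate 1 crossed. This gave a log2 fold change of 0.46 ± 0.13 (SE; limma adjusted p = 0.0288), at chr3:111336480-111353903 on the minus strand in the table's coordinates. The model shares 592 bases with Wdr77 on the other strand, whose log2 fold change was -0.11 (limma adjusted p = 0.516).

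The subunits of the catalytic head did not pass the test. Atp5a1 (alpha) averaged 297 ± 21.4 FPKM in Ednrb-/- explants and 280 ± 29.4 FPKM in WT explants, and Atp5b (beta) 253 ± 21.3 FPKM in Ednrb-/- explants and 260 ± 14.7 FPKM in WT explants (SD, n = 5 each). On the log2 scale these are changes of 0.09 ± 0.10 and -0.04 ± 0.09 (SE; limma adjusted p = 0.572 and 0.775). Atp5c1, the gamma subunit that turns inside the head, was at 0.27 ± 0.15 (SE; limma adjusted p = 0.236).

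The 3 genes Atp5g1, Atp5g2 and Atp5g3 encode the same mature c subunit, of which the rotor ring is made. Atp5g3 was the highest, with 103 ± 10.6 FPKM in Ednrb-/- explants and 95.8 ± 9.08 FPKM in WT explants, followed by Atp5g2 with 67.9 ± 12.2 FPKM in Ednrb-/- explants and 61.2 ± 9.5004 FPKM in WT explants. Atp5g1 was lowest, with 15.2 ± 3.09 FPKM in Ednrb-/- explants and 15.9 ± 1.95 FPKM in WT explants (SD, n = 5 each). None of these 3 passed by limma (adjusted p = 0.520, 0.524 and 0.765), nor at an unadjusted p under 0.05. The order of the 3 genes was the same in both genotypes. The table's length for Atp5g1 is 4265 bases, so its FPKM is spread over more bases than its coding region of 408. The membrane accessory subunits Atp5l, Atp5k and Atp5j2 had the highest median of any role (0.53), led by Atp5l with 0.67 ± 0.26 (SE; limma adjusted p = 0.0965). That median was the value of Atp5k (limma adjusted p = 0.318), which had 67.0 FPKM in Ednrb-/- replicate 5. In the other Ednrb-/- libraries Atp5k had 23.2 to 26.8 FPKM, within the WT range of 10.1 to 32.1 FPKM. Atp5s, a low coupling factor of the complex, averaged 2.32 ± 1.37 FPKM in Ednrb-/- explants and 2.71 ± 0.788 FPKM in WT explants (SD, n = 5 each; log2 fold change -0.26, limma adjusted p = 0.579).

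Within each genotype the members moved together from library to library. Of the 84 tested, 56 were highest among Ednrb-/- libraries in replicate 5, and 53 were highest among WT libraries in replicate 1, while 61 were lowest in WT replicate 3. The lowest Ednrb-/- library was replicate 2 for 39 members and replicate 4 for 31. The median deviation of the members from their own means was 0.10, -0.07, 0.13, -0.04 and 0.39 in Ednrb-/- replicates 1 to 5, against 0.17, -0.07, -0.39, 0.01 and -0.24 in WT replicates 1 to 5, on the log2 scale. Ednrb-/- replicate 5 and WT replicate 3 stood at the ends of this order, and WT replicate 1 lay above 4 of the 5 Ednrb-/- libraries. Over all tested genes the same median stayed between -0.032 and 0.016 in every library. A median over so many genes does not show whether other gene groups moved as the members did, which was not tested. The coefficient of variation of a member had a median of 17.9% in Ednrb-/- explants and 19.6% in WT explants.

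**Figure D4:**
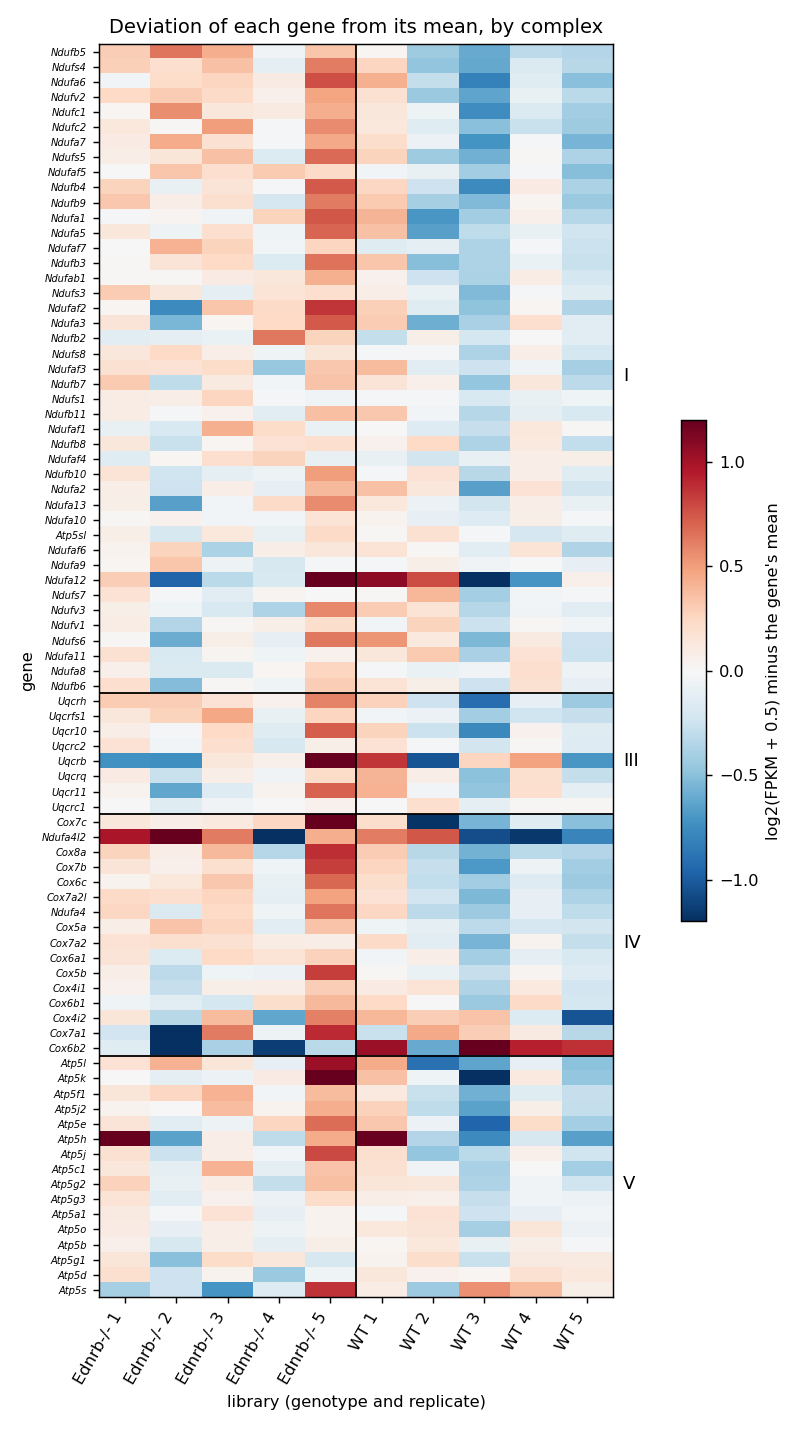
Deviation of log2(FPKM + 0.5) from the gene's mean over 10 libraries (colour, red above and blue below) for 83 of the tested members (rows, by complex and fold change) in Ednrb-/- libraries (left) and WT libraries (right). The columns of Ednrb-/- replicate 5 and WT replicate 1 are mostly red and that of WT replicate 3 mostly blue, with medians of 0.39, 0.17 and -0.39.

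Summed over its subunits, complex I came to 1771 ± 258 FPKM in Ednrb-/- explants and 1476 ± 256 FPKM in WT explants. Complex III came to 477 ± 68.4 FPKM in Ednrb-/- explants and 401 ± 70.8 FPKM in WT explants. Complex IV came to 1518 ± 205 FPKM in Ednrb-/- explants and 1248 ± 194 FPKM in WT explants, and complex V to 1314 ± 151 FPKM in Ednrb-/- explants and 1181 ± 141 FPKM in WT explants (SD, n = 5 each; not tested, since the members were chosen with results known). In each complex the ranges of the genotypes overlapped.

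Which members passed depended on single libraries. Without WT replicate 1, 21 members rose (beside 6.74% of all genes), and without Ednrb-/- replicate 3, Ednrb-/- replicate 5, WT replicate 3 or WT replicate 5 only Ndufb5 did (beside 3.87%, 3.6%, 3.38% and 3.39% of all genes). Without Ednrb-/- replicate 2, 2 members rose (beside 4.73% of all genes), and 3 rose without WT replicate 4 (beside 3.44%). In these 6 fits the share of all genes was thus also below the 6.53% of the full set. Of the 10 fits that each left out 1 library, Ndufb5 passed in 10, Cox6b2 in 7, Ndufv2 in 5, Atp5f1, Cox5a, Ndufaf5 and Uqcrfs1 in 4 each, Ndufaf7 and Ndufc2 in 3 each, and Ndufs4 in 2. In these fits the log2 fold changes of the 9 risers stayed between 0.31 and 0.76 and the highest adjusted p was 0.116. Leaving out WT replicate 1 and Ednrb-/- replicate 5 together, a setting chosen after seeing the data, gave 11 (beside 3.56% of all genes). When the mean level of the smooth muscle list or of the neuron list was added to the model, no member passed by limma, none had an unadjusted p under 0.05, and 0 of 15156 genes passed in all. Neither list's mean overlapped between the genotypes, so the part of cell composition in the members' rise cannot be told apart from genotype here.

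Shorter members tended to have higher fold changes, a weak relation (Spearman correlation -0.34) given here as a description with no test. The 42 tested members with a coding length of up to 435 bases had a median log2 fold change of 0.35, and the 42 longer ones 0.10. The calls ran the other way: 1 of the 42 short members rose, beside 8 of the 42 long ones (2.38% and 19.0%). Over all tested genes with a coding length 10.6% of those no longer than 435 bases rose and 7.01% of the longer ones, the opposite order. Of these 12145 genes, the 700 short ones had a median of 0.15 and the longer ones -0.01. Among the members that rose and count as long, Cox5a lay just past the cut, at 438 bases. In Ednrb-/- replicate 5 the short members deviated by 0.64 and the long ones by 0.26, and in WT replicate 3 by -0.49 and -0.34. By another measure, the table's gene length and not the coding length, 420 other tested protein-coding genes were under 1000 bases. Their mean log2 level was 3.60, 3.29, 3.49, 3.55 and 3.65 in Ednrb-/- replicates 1 to 5, against 3.83, 3.48, 3.51, 3.73 and 3.57 in WT replicates 1 to 5. WT replicate 1 had the highest value, and the ranges of the genotypes overlapped. With this mean in the model, added after seeing the data, 27 members rose, beside 6.03% of all genes.

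**Figure D5:**
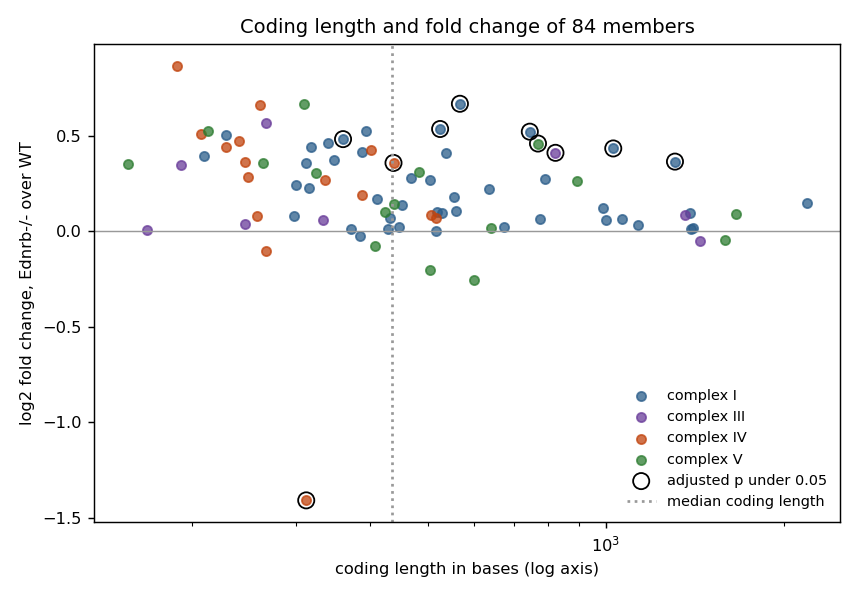
Coding length in bases (horizontal log axis) against log2 fold change, Ednrb-/- over WT (vertical axis), of the 84 tested members, coloured by complex, with rings around the 10 that passed and a dotted line at the median length of 435 bases. Of the 9 members that rose, 8 lie to the right of the line, while the highest fold change, that of Cox7c (0.87), lies at its left.

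Copies and lengths limit some values. The table lists 95 processed pseudogenes that carry the protein name of a member, for 46 members, and 11 of these had a mean of at least 1 FPKM. The copy of Ndufa12 averaged 43.5 FPKM, and Ndufa12 itself ranged from 7.98 to 47.2 FPKM over the 10 libraries, so its level is uncertain. Copies of Uqcrb averaged 9.69 and 2.66 FPKM, beside 16.8 FPKM for Uqcrb itself. The level of Uqcrb and its spread between libraries are therefore uncertain too. The table's gene length was 0.5999 to 12.4 times the length of the main mRNA in GENCODE M21, with a median of 1.45, so the order of FPKM between members is approximate. The length also enters the fold change of low members, since the 0.5 is added after the division by length: Atp5s was at -0.26 with 0.5 and at -0.31 with 0.1 added.

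Neighbouring pathways were described from lists. Complex II, the succinate dehydrogenase that feeds the chain and has no mitochondrially encoded part, had a median of 0.04. Sdha, its flavoprotein, was at 56.8 ± 4.18 FPKM in Ednrb-/- explants and 64.6 ± 3.59 FPKM in WT explants (SD, n = 5 each; log2 fold change -0.19, limma adjusted p = 0.112), with every Ednrb-/- library below every WT library. None of the 4 complex II genes passed by limma or by limma voom, and 1 had an unadjusted p under 0.05 (beside 33.1% of all tested genes). The electron carrier Cycs, cytochrome c, had a log2 fold change of 0.39 and Cyc1 of 0.11. Usmg5, a small ATP synthase subunit outside the name rule, was at 264 ± 74.5 FPKM in Ednrb-/- explants and 174 ± 74.5 FPKM in WT explants (SD, n = 5 each; log2 fold change 0.66, limma adjusted p = 0.106).

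Of the tested assembly factors outside the name rule (8 for complex I, 10 for complexes II and III, 19 for complex IV), none passed by limma or by limma voom. An unadjusted p under 0.05 was reached by 2 of the 8, 2 of the 10 and 7 of the 19, beside 33.1% of all tested genes. The medians were 0.06, 0.22 and 0.15. Among 18 tested regulators of mitochondrial biogenesis none passed by limma, with a median of 0.08. Of the 18, 7 had an unadjusted p under 0.05, again beside 33.1% of all genes. By limma voom 2 rose and 1 fell, beside 1236 and 1904 of all 15156 genes. The nearest was Pprc1, a coactivator related to PGC-1alpha, with 7.15 ± 1.10 FPKM in Ednrb-/- explants and 10.2 ± 2.05 FPKM in WT explants (SD, n = 5 each; log2 fold change -0.48, limma adjusted p = 0.0540).

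The tricarboxylic acid cycle, which supplies NADH to complex I, had 4 genes that fell and 1 that rose among 17 tested (median -0.02), beside 13.0% and 6.53% of all tested genes. By limma voom 3 fell and 1 rose. Idh2, the NADP-linked isocitrate dehydrogenase, was at 50.2, 38.9, 48.5, 40.5 and 44.4 FPKM in Ednrb-/- replicates 1 to 5, against 60.9, 63.5, 55.2, 62.0 and 62.5 FPKM in WT replicates 1 to 5. Every Ednrb-/- library lay below every WT library, and the log2 fold change was -0.45 ± 0.09 (SE; limma adjusted p = 0.0057). Ogdh and Suclg2, which act in succession in the cycle, fell by 0.41 and 1.10 on the log2 scale (limma adjusted p = 0.0123 and 0.0266), Dlst fell by 0.23 (limma adjusted p = 0.0447) and Dld rose by 0.23 (limma adjusted p = 0.0491). Dlst and Dld, whose changes had opposite signs, encode parts of the same oxoglutarate dehydrogenase complex as Ogdh.

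In the mitochondrial import list 2 of 14 tested genes fell and 1 rose: Timm17a (-0.53) and Tomm40 (-0.31) fell, and Timm9 (0.36) rose (limma adjusted p = 0.0376, 0.0475 and 0.0276). These shares are near those of all tested genes (13.0% fell and 6.53% rose), the list's median was 0.10, and by limma voom 1 fell and none rose. In the hypoxia list 2 of 16 fell and 1 rose, again near the shares of all genes, while the median was 0.27 with 11 of 16 above 0. Adm fell by 1.66 and Ndrg1 by 1.14 on the log2 scale, and Mxi1 rose by 0.45 (limma adjusted p = 0.0118, 0.0044 and 0.0096).

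The respiratory chain parts made from mitochondrial DNA were not analysed here as genes. The table does hold an unnamed gene model of 767 bases whose annotation in the table is cytochrome c oxidase subunit 1, the catalytic subunit of complex IV, on a contig outside the chromosomes. It was picked after its values were seen. The model had 3854, 5824, 5377, 2662 and 6022 FPKM in Ednrb-/- replicates 1 to 5, against 4308, 1075, 2345, 1728 and 911 FPKM in WT replicates 1 to 5. Ednrb-/- replicate 4 was low and WT replicate 1 was high, so the groups overlapped. The log2 fold change was 1.36 ± 0.41 (SE; limma adjusted p = 0.0379), and it passed in 2 of the 10 fits that left out 1 library. Whether the reads come from mitochondrial RNA or from a nuclear copy was not tested.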

How the data were processed

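RNA of 5 Ednrb-/- and 5 WT explant samples was sequenced. Per the labels' protocols it was extracted with TRIzol and made into libraries by standard Illumina protocols. Per the submitters' processing notes, fastp, HISAT2 2.0.5, featureCounts 1.5.0-p3 and the build mm10 were used. These sources do not give settings, filters or strand use. The authors deposited FPKM per gene model, per the file headers. Its gene identifiers belong to an assembly of the strain C57BL/6NJ, so coordinates are printed as given and were not converted.

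FPKM multiplied by gene length gave whole reads for 99.9 to 100% of values within 0.01 of a read in each library, and intervals were not computed from them. Pairs of libraries of a genotype had a mean chi-square per gene of 15.3 to 96.9, and none was merged. Genotypes were compared with limma-trend (limma 3.58.1, R 4.3.3) on log2(FPKM + 0.5), two-sided, over 15156 genes with at least 0.5 FPKM in at least 5 libraries, adjusted by Benjamini-Hochberg, threshold 0.05; this scale understates the change of low genes. "Rose" and "fell" mean past that threshold. The code was tested on simulated data. Limma p values set the genotype difference against the spread between these samples, with each gene's variance moderated by that of all genes.

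The members, lists and tests were chosen with earlier results of these data known. Genes were named by rule: members past the threshold, the 3 highest by FPKM and the extreme fold changes of each complex, restricted forms with their partners, the c ring genes, and up to 3 genes per list with the lowest p. Others, named for their spread or overlap, were chosen after their values were seen. Alternatives changed the pseudocount, filter, gene set, scaling, variance prior, weights, test (limma voom on the reads worked back), block, covariates and libraries. Values of 1 member are not reported singly here.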

Additional observations from a re-analysis of the deposited data

Results flagged for a closer look

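In 4 of 72 groups of 5 libraries tested for a library far from the rest, 1 library stood apart, where chance alone gives about 1 in 20. Ednrb-/- replicate 5 had 50.8 FPKM of Cox7c (17.4 to 19.6 FPKM in the other Ednrb-/- libraries), 89.1 FPKM of Cox7b (48.1 to 57.2 FPKM in the others) and 4.71 FPKM of Atp5s (1.25 to 2.07 FPKM in the others). WT replicate 1 had 143 FPKM of Cox8a (78.2 to 92.3 FPKM in the other WT libraries). These are the libraries in which most members were highest within their genotype. The gene model annotated as cytochrome c oxidase subunit 1, which lies outside the name rule, averaged 4748 FPKM in Ednrb-/- explants and 2073 FPKM in WT explants.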

How the results depend on the processing

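The count of members that rose was 9, and 9 to 12 with either other pseudocount, with protein-coding genes only, TPM, quantile normalization or limma voom. It was 16 with array weights, 6 with no trend in the prior variance, 3 with no filter on low values, 1 with the replicate block, 27 with the short-gene covariate, 0 with the smooth muscle or neuron covariate, and 1 to 21 when 1 library was left out. The count that fell was 1, and 0 with either cell type covariate, the short-gene covariate or both libraries left out (0 to 1 with 1 library left out). Over all genes 990 rose and 1966 fell; the rises were 1684 with array weights, 1603 with quantile normalization (1730 fell), 659 with no filter, 419 with the replicate block, 539 without both libraries, and 513 to 1150 with 1 library left out, and both counts were 0 with the smooth muscle or neuron covariate (1183 and 260 genes at an unadjusted p under 0.05). The labels do not say whether replicate numbers pair the samples. Deviations from the genotype means correlated between same-numbered libraries at -0.033, 0.015, -0.15, 0.15 and -0.16. So few pairs cannot settle whether a number marks a shared litter or day. The member that still rose in the block was Ndufb5.

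With the smooth muscle covariate the medians were 0.043 (complex I), -0.11 (complex III), -0.054 (complex IV) and -0.15 (complex V), Ednrb was at -2.52 and no longer passed, and signs turned for Atp5a1 (-0.21), Atp5c1 (-0.16), Atp5g2 (-0.29), Atp5g3 (-0.14), Atp5s (0.045), Cox4i1 (-0.26), Cox4i2 (-0.70), Cox6a1 (-0.071), Cox6b1 (-0.060), Cox8a (-0.049), Ndufa4l2 (-1.01), Ndufc2 (-0.030) and Uqcrc2 (-0.11). With the neuron covariate the medians were -0.11 (complex I), -0.39 (complex III), -0.090 (complex IV) and 0.022 (complex V), Ednrb was at -3.60 and no longer passed, and signs turned for Atp5b (0.10), Atp5f1 (-0.18), Atp5g1 (0.27), Atp5l (-0.60), Cox4i1 (-0.030), Cox5a (-0.074), Cox6b1 (-0.54), Cox7a1 (1.28), Cox7a2 (-0.25), Cox7b (-0.37), Cox7c (-0.19), Cox8a (-0.19), Ndufa4l2 (-0.58), Ndufaf5 (-0.046), Ndufaf7 (-0.11), Ndufb5 (-0.065), Ndufb6 (0.22), Ndufb9 (-0.034), Ndufs4 (-0.17), Ndufv2 (-0.22) and Uqcrh (-0.45). With the short-gene covariate the complex III median was 0.34. Cox7a1 turned to 0.089 with that covariate, 0.18 with array weights and 0.22 with quantile normalization, and Ndufb6 to 0.14 with that covariate and 0.037 with array weights and 0.035 with limma voom. With 1 library left out, Cox4i2 ranged from -0.18 to 0.24, Ndufb6 from -0.099 to 0.10, Cox6b1 from -0.019 to 0.15, Atp5g1 from -0.15 to 0.042 and Cox7a1 from -0.34 to 0.25. The cause was not tested. Genes near the filter rest on few reads, with 3 to 26 per library for Cox4i2 and 0 to 13 for Cox7a1. Cox6b2, higher on average, had 12 to 156.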
